A study of Mus musculus with 6 samples.

Results

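A miRNA hairpin is cut from a longer transcript and releases a duplex whose strands come from its 5p arm and its 3p arm. The subject here is both arms of 5 hairpins that lie inside genes, the hairpins of miR-671, miR-151, miR-28a, miR-340 and miR-1981, which give 10 of the 199 mature miRNAs counted in 6 small RNA libraries. The libraries were made from mouse small intestinal organoids, epithelial cultures grown from crypts in Matrigel and IntestiCult medium. There were 3 libraries given the solvent PBS and 3 given BMP4, a secreted differentiation factor of the gut, at 0.5 µg/ml for 4 days. The labels name no genotype, strain or age. The methods speak of replicates of each culture condition and of repeated experiments in general, but neither they nor the labels say whether these libraries came from separate cultures, so the errors below may be technical. The 10 arms were chosen on measured values of this same contrast, namely the ratio of the 5p to the 3p arm and the level of each arm per library. Their values are therefore a description, with no p. All 10 passed the filter on low counts, so none was left out of the fits.

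Usually 1 strand of the duplex, the guide, is loaded into an Argonaute protein and the other is degraded. The seed, bases 2 to 8 of the loaded strand, selects the target mRNAs, so a hairpin that yields more of its other arm yields a miRNA with other targets. Most hairpins are cut from their transcript by the nuclease Drosha, whereas a mirtron is a whole short intron that splicing releases and that bypasses Drosha. The libraries hold small RNA only, so the host mRNAs were not measured.

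All 5 hairpins lay on the strand of a coding gene, but in different ways (GRCm38, GENCODE M21). Mir671 lies on chromosome 5, 24592114 to 24592211, and overlaps coding sequence of Chpf2, which encodes a chondroitin synthesis enzyme. Exons of 2 Chpf2 transcripts overlap the hairpin. On the other strand 1 transcript of Smarcd3 has an exon there. Mir1981 on chromosome 1 is an intron of Marc2, a mitochondrial reductase gene, from end to end: the hairpin and the intron of 82 nt both run from 184822407 to 184822488, as in a mirtron. Among 171 hairpin genes matched to the table, Mir1981 was the only whole intron and Mir671 the only hairpin that overlapped coding sequence on its own strand. Mir151 lies on chromosome 15, 73254815 to 73254882, in an intron of 14556 nt of Ptk2, the gene of focal adhesion kinase. Mir28a lies on chromosome 16, 24827855 to 24827940, in an intron of 82814 nt of Lpp, a focal adhesion protein gene, and Mir340 on chromosome 11, 50069702 to 50069799, in an intron of 18200 nt of the ubiquitin ligase gene Rnf130. The hairpins of miR-28 and miR-151 are known to derive from LINE-2 elements, an old family of transposons.

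The mature sequences are shown because the arms of a hairpin carry unlike seeds, given in capitals (RefSeq, GRCm38.p6, 5′ to 3′). Of the 10 arms 8 matched an entry, and miR-151-5p and miR-151-3p are named only.
mmu-miR-671-5p: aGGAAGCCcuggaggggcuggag
mmu-miR-671-3p: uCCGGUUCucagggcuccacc
mmu-miR-28a-5p: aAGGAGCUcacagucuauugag
mmu-miR-28a-3p: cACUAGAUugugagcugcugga
mmu-miR-340-5p: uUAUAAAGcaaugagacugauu
mmu-miR-340-3p: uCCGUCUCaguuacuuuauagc
mmu-miR-1981-5p: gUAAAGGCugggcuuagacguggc
mmu-miR-1981-3p: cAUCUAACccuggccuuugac
None of these 8 seeds was shared with another entry of the table that had a sequence, 177 of 199. The arms of miR-340 both begin with U, while those of miR-671 begin with A and U and those of miR-28a with A and C.

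The hairpins of the exonic and the whole-intron locus are shown with their arms in capitals.
Mir671: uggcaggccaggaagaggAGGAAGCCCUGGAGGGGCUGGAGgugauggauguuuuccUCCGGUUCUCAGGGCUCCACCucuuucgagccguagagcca
Mir1981: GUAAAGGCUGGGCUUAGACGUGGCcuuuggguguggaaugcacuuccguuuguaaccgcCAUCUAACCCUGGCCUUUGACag
The 5p arm of miR-1981 begins at base 1 of the hairpin, so its first bases are the gu of the 5′ splice site, and the hairpin ends in the ag of the 3′ splice site. RNAfold 2.7.2 predicted 18 base pairs between the arms of Mir671, 17 for Mir1981 and 16 for Mir340.

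Total counts ranged from 259811 in PBS replicate 1 to 3486409 in BMP4 replicate 3, and the 10 arms took 0.419 to 0.524% of them in PBS and 0.128 to 0.163% in BMP4. All 8 miRNAs listed as intestinal epithelial markers were in the table, with 50.1 to 52.4% of counts in PBS and 80.9 to 83.1% in BMP4. Of markers of other cells, 1 of 7 for stroma and muscle, 2 of 6 for immune cells, 1 of 2 for endothelium, 2 of 4 for neurons, 1 of 1 for liver and 0 of 3 for erythroid cells were in the table, each list with at most 0.104% of counts. Both markers listed for stratified epithelium, miR-205-5p and miR-203-3p, were in the table, with 0.676 to 0.828% of counts in PBS and 0.371 to 0.477% in BMP4. The part of cell makeup in the results below was not tested, and in bulk samples fewer cells of a type cannot be told apart from less RNA per cell. BMP4 replicate 2 had the lowest TMM factor (0.375, against 0.600 and 0.651 in the other BMP4 libraries and 1.78 to 1.97 in PBS). Over 34 hairpins with both arms counted, this library lay farthest from the median arm ratio of the 6 libraries in 16 and PBS replicate 1 in 10. Levels are given as CPM, counts per 1000000 of a library size scaled by TMM, which takes most miRNAs as unaltered. On this scale the epithelial markers miR-215-5p, miR-194-5p and miR-192-5p had edgeR log2 fold changes, BMP4 over PBS, of 3.85, 2.48 and 1.46. Those of miR-141-3p, miR-200a-3p, miR-200b-3p, miR-200c-3p and miR-375-3p were 0.45, 0.31, 0.16, -0.43 and -0.65, so the epithelial list did not move as a whole. The stratified epithelium markers, whose share of counts was lower in BMP4, summed to 3439 to 4242 CPM in PBS and 6747 to 9915 CPM in BMP4. Their log2 fold changes were 1.03 for miR-203-3p and -3.01 for miR-205-5p. With the library totals unscaled, the log2 fold changes of all tested miRNAs had a median of -1.78 in place of 0.03.

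mmu-miR-671-5p was the arm with the lowest fold change of the 10, and the higher arm of its hairpin was not the same in PBS and BMP4. In mouse and human, miR-671-5p is known to direct cleavage of the circular RNA Cdr1as. It had 13, 73 and 45 counts in PBS replicates 1 to 3 against 1, 2 and 8 in BMP4, or 25.4, 18.2 and 10.8 CPM against 1.55, 5.34 and 3.52 CPM. All BMP4 values lay under all PBS values, and the BMP4 counts are few. The log2 fold change of edgeR was -2.31 ± 0.56 (SE, n = 3 per group). Its partner mmu-miR-671-3p had 6, 33 and 21 counts in PBS against 2, 8 and 37 in BMP4, or 11.7, 8.25 and 5.05 CPM against 3.10, 21.4 and 16.3 CPM, so the groups overlapped (0.86 ± 0.53). Leaving out BMP4 replicate 3 gave 0.51 for this arm and leaving out BMP4 replicate 1 gave 1.27.

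The 5p arm took 68.4, 68.9 and 68.2% of the miR-671 reads in PBS and 33.3, 20 and 17.8% in BMP4, a mean of 68.5% ± 0.348 against 23.7% ± 8.41 (SD, n = 3). Thus the 5p arm was the higher arm in every PBS library and the 3p arm in every BMP4 library. By 95% Wilson intervals the shares of PBS replicates 2 and 3 (59.5 to 76.9% and 56.2 to 78.2%) lay above that of BMP4 replicate 3 (9.29 to 31.3%), but BMP4 replicate 1, with 3 reads, spanned 6.15 to 79.2%. Intervals cover counting error only. The arm ratio, log2 of (5p + 0.5)/(3p + 0.5), was 1.09 ± 0.040 in PBS and -1.55 ± 0.727 in BMP4 (SD, n = 3), a difference of -2.64 ± 0.49 (SE). In PBS it spanned 0.0791, the narrowest range of the 34 hairpins. The 19 reads of PBS replicate 1 gave a 95% Wilson interval of 46.0 to 84.6%. The PBS shares thus lay closer together than counting error alone would place them, and the small PBS SD is no measure of reproducibility. Both arms summed gave 37.2, 26.5 and 15.9 CPM in PBS and 4.65, 26.7 and 19.8 CPM in BMP4, values that overlapped. The difference of the summed log2 levels was -0.80, and -0.10 without BMP4 replicate 1.

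**Figure D1:**
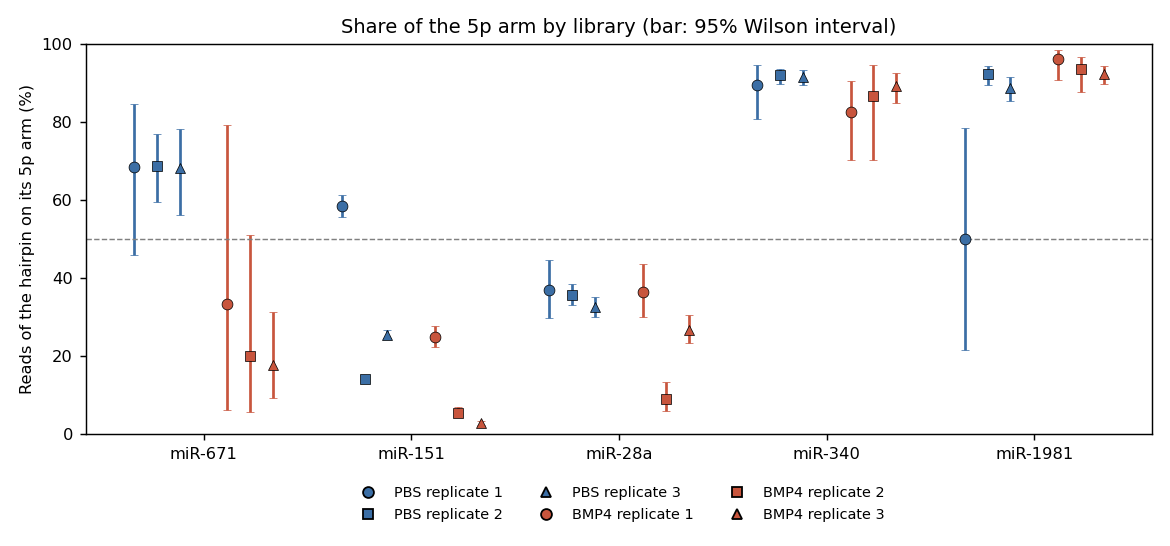
Share of each hairpin's reads on the 5p arm (%, vertical axis) in the 6 libraries, with 95% Wilson intervals for counting error as bars and a dashed line at 50%. The miR-671 shares are 68.2 to 68.9% in PBS and 17.8 to 33.3% in BMP4, whereas the miR-151 shares of single libraries lie far apart within each group.

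miR-151 was the most abundant of the 5 hairpins, and by pooled SD its arm ratio spread most between libraries of the same group. In human liver cancer cells miR-151 is known to act together with its host PTK2 in cell motility. mmu-miR-151-5p had 642, 972 and 1781 counts in PBS against 256, 69 and 86 in BMP4, or 1257, 243 and 429 CPM against 397, 184 and 37.9 CPM. BMP4 replicate 1 thus lay above PBS replicate 2, and the groups overlapped. mmu-miR-151-3p stood at 891, 1474 and 1246 CPM in PBS and 1196, 3111 and 1300 CPM in BMP4, with the highest value in BMP4 replicate 2. The log2 fold change was -1.64 ± 0.62 for the 5p arm and 0.63 ± 0.37 for the 3p arm (SE, n = 3 per group). Without PBS replicate 1 the 5p value was -0.70 and without BMP4 replicate 1 it was -2.62, and without BMP4 replicate 2 the 3p value was 0.05.

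Of the miR-151 reads in PBS the 5p arm held 58.5%, 14.2% and 25.6%, with 95% Wilson intervals of 55.6 to 61.4%, 13.4 to 14.999% and 24.6 to 26.6%. In BMP4 it held 24.9%, 5.60% and 2.83%, with intervals of 22.4 to 27.7%, 4.45 to 7.02% and 2.30 to 3.48%. No intervals of the same group overlapped, so counting error does not span the differences between libraries of 1 group, and PBS replicate 1 was the only library in which the 5p arm was the higher. BMP4 replicate 1 lay beside PBS replicate 3. The arm ratio was -1.21 ± 1.57 in PBS and -3.58 ± 1.80 in BMP4 (SD, n = 3), a difference of -2.37 ± 1.03 (SE), which was -1.51 without PBS replicate 1, -1.61 without BMP4 replicate 3 and -3.37 without BMP4 replicate 1. Summed, the arms gave 1846 ± 261 CPM in PBS and 2075 ± 1064 CPM in BMP4 (SD, n = 3).

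miR-28a comes from the same class of transposon as miR-151, and its human ortholog is known as a brake on B cell lymphoma growth. mmu-miR-28a-5p had 59, 437 and 439 counts in PBS against 68, 21 and 159 in BMP4, or 115, 109 and 106 CPM against 105, 56.1 and 70.0 CPM. The groups did not overlap, although BMP4 replicate 1 lay just under PBS replicate 3. mmu-miR-28a-3p stood at 198, 196 and 218 CPM in PBS and 183, 569 and 192 CPM in BMP4, so that only BMP4 replicate 2 lay above the PBS libraries. The log2 fold change was -0.50 ± 0.38 for the 5p arm and 0.61 ± 0.42 for the 3p arm (SE, n = 3 per group), and that of the 3p arm was -0.13 without BMP4 replicate 2.

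The 3p arm of miR-28a was the higher arm in all 6 libraries. The 5p share was 36.9, 35.8 and 32.6% in PBS and 36.6, 8.97 and 26.8% in BMP4. BMP4 replicate 1 lay within the PBS values, and BMP4 replicate 2 stood apart, with a 95% Wilson interval of 5.94 to 13.3% against 30.0 to 43.7% in BMP4 replicate 1 and 23.4 to 30.5% in BMP4 replicate 3. The arm ratio went from -0.89 ± 0.143 to -1.85 ± 1.31 (SD, n = 3). The difference of -0.96 ± 0.66 (SE) was -0.23 without BMP4 replicate 2. The related entry miR-28c, of another locus, had 5, 30 and 33 counts in the PBS libraries against 3, 2 and 14 in BMP4, and reads of near-identical entries may be counted under each.

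For miR-340 the arms differed least in fold change, and the 5p arm was the higher arm in all 6 libraries. mmu-miR-340-5p had 69, 686 and 745 counts in PBS against 43, 26 and 226 in BMP4, or 135, 171 and 179 CPM against 66.7, 69.5 and 99.6 CPM. All BMP4 values lay under all PBS values, and the log2 fold change by edgeR was -1.03 ± 0.37 (SE, n = 3 per group). mmu-miR-340-3p, with 8, 60 and 69 counts in PBS against 9, 4 and 27 under BMP4, stood at 15.7, 15 and 16.6 CPM against 13.96, 10.7 and 11.9 CPM (-0.36 ± 0.42), and these groups did not overlap either. Summed, the arms gave 178 ± 23.8 CPM in PBS and 90.8 ± 17.9 CPM in BMP4 (SD, n = 3), a log2 difference of -0.97. The 5p share was 89.6, 92.0 and 91.5% in PBS and 82.7, 86.7 and 89.3% in BMP4. These shares did not overlap, but with 0.5 added to each count the arm ratio of BMP4 replicate 3 (3.04) passed that of PBS replicate 1 (3.03). Its difference was -0.72 ± 0.44 (SE).

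miR-1981, the whole intron of Marc2, was the only one of the 5 whose 5p arm was higher in BMP4. mmu-miR-1981-5p had 4, 441 and 350 counts in PBS against 103, 115 and 496 in BMP4, or 7.83, 110 and 84.2 CPM against 160, 307 and 219 CPM. All BMP4 values lay above all PBS values, and PBS replicate 1 lay far under the other PBS libraries. The log2 fold change was 1.67 ± 0.53 (SE, n = 3 per group), 1.31 without PBS replicate 1, and -0.15 with total counts. mmu-miR-1981-3p had 4, 37 and 44 counts in PBS against 4, 8 and 41 in BMP4, or 7.83, 9.25 and 10.6 CPM against 6.20, 21.4 and 18.1 CPM, with overlap (0.67 ± 0.46). Leaving out BMP4 replicate 3 gave 0.40 for the 3p arm and leaving out BMP4 replicate 1 gave 1.005. In PBS replicate 1 the CPM of the 3p arm thus lay near those of the other PBS libraries, and that of the 5p arm did not. Each arm had only 4 counts there, in a library where 3 counts were worth 5.87 CPM, so the 3p level is uncertain.

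The 5p share of miR-1981 was 50, 92.3 and 88.8% in PBS and 96.3, 93.5 and 92.4% in BMP4. The 8 reads of PBS replicate 1 gave a 95% Wilson interval of 21.5 to 78.5%, which lay under those of PBS replicate 2 (89.5 to 94.3%) and replicate 3 (85.3 to 91.6%). PBS replicate 2 and BMP4 replicate 3 differed by little. The arm ratio was 2.18 ± 1.91 in PBS and 3.96 ± 0.500 in BMP4 (SD, n = 3). Its difference of 1.78 ± 0.88 (SE) was 0.69 without PBS replicate 1. The summed arms gave 76.7 ± 54.2 CPM in PBS and 244 ± 81.6 CPM in BMP4 (SD, n = 3), of which nearly all was the 5p arm. The log2 difference of the sums was 2.04, and 1.21 without PBS replicate 1.

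**Figure D2:**
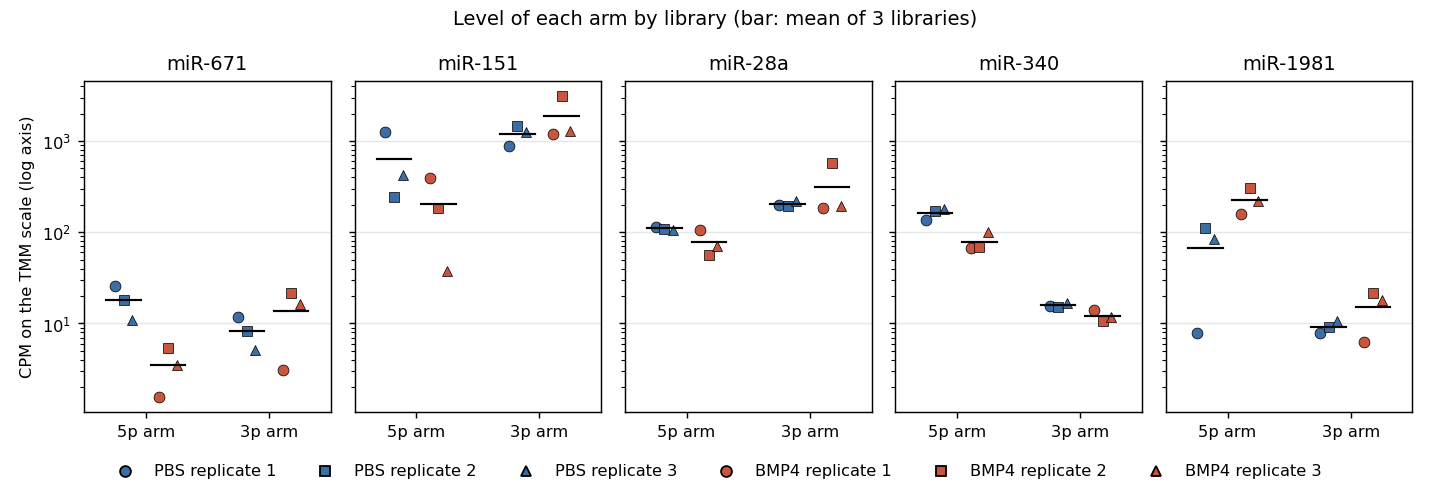
Level of the 10 arms in each library, in CPM on the TMM scale (log axis), with a bar at the mean of the 3 libraries of a group. The PBS values of miR-28a and miR-340 lie close together, miR-151-5p spans 243 to 1257 CPM in PBS, and miR-1981-5p of PBS replicate 1 lies at 7.83 CPM under the other libraries.

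Across the 5 hairpins the fold change was lower for the 5p arm than for the 3p arm in 4, all but miR-1981. The 3p arms ranged from -0.36 to 0.86 on the log2 scale with a median of 0.63, and the 5p arms from -2.31 to 1.67 with a median of -1.03, against 0.03 over all 195 tested miRNAs. By edgeR 4 of the 10 arms were called at an adjusted p under 0.05, against 30.3% of all tested miRNAs. Of these, 3 were lower in BMP4 (miR-671-5p, miR-151-5p and miR-340-5p), against 12.8% of all, and miR-1981-5p was higher. The groups did not overlap for 5 of the 10 arms, against 43.6% of all. Since the arms were chosen on this contrast, nothing is read from these counts. miR-151-5p was no longer called when PBS replicate 1 (-0.70), BMP4 replicate 3 (-1.13) or PBS replicate 3 (-1.81) was left out. miR-340-5p lost its call when any single library other than BMP4 replicate 2 was left out, with values from -1.26 to -0.85. miR-1981-5p lost its call when PBS replicate 3 was left out (1.94). With total counts all 10 arms had values under 0. Those of miR-671-5p (-4.02), miR-151-5p (-3.50), miR-340-5p (-2.79), miR-28a-5p (-2.26) and miR-340-3p (-2.10) lay under the median of all miRNAs, -1.78, and those of the other arms above it.

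**Figure D3:**
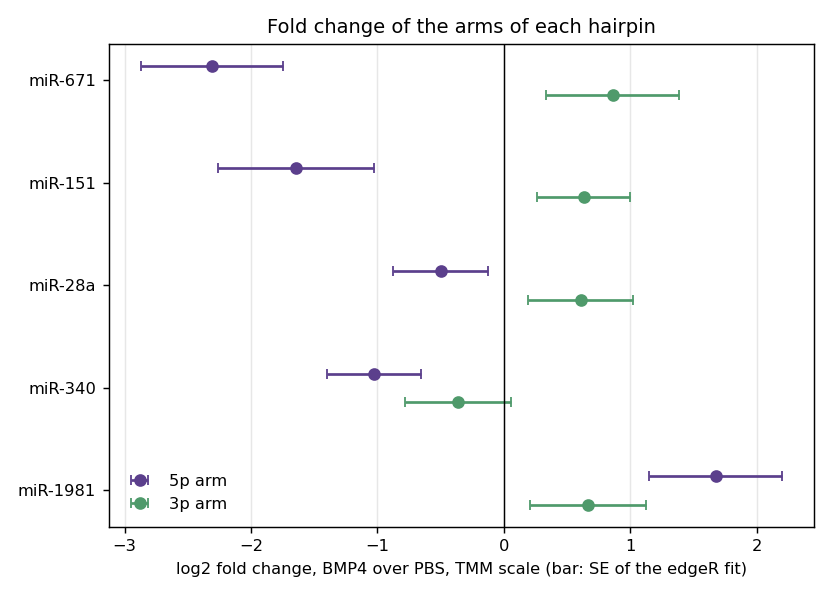
log2 fold change of BMP4 over PBS on the TMM scale (horizontal axis) for the 5p and 3p arm of each hairpin, with the SE of the edgeR fit as bars. The 5p point lies to the left of the 3p point for miR-671, miR-151, miR-28a and miR-340 and to the right for miR-1981.

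The table held both arms of 34 hairpins, and the same ratio was fitted with limma over all of them. By size of the difference miR-671 and miR-151 stood first and second toward the 3p arm, and miR-1981 stood first toward the 5p arm. miR-28a was the 8th and miR-340 the 10th of 34 from the 3p end. In the other 29 hairpins the difference ranged from -1.78 to 1.61 with a median of -0.18, and 17 of 29 were under 0, against a median of -0.96 and 4 of 5 here. The largest values among the others were those of miR-25 (-1.78 ± 0.98), miR-106b (-1.35 ± 0.65) and miR-18a (-1.28 ± 0.44) toward the 3p arm. Toward the 5p arm they were miR-27a (1.61 ± 0.55), miR-23b (1.18 ± 0.95) and miR-183 (0.93 ± 0.50, SE). Of these others, 15 lay on the strand of a coding gene, with a median of -0.36 and 10 under 0, and 14 did not, with a median of 0.04 and 7 under 0. The members' place is given by how they were chosen, and no difference between these sets was tested.

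limma called 1 of the 5 hairpins, miR-671, and 0 of the other 29, of which 2 had an unadjusted p under 0.05, so that the share over all 34 hairpins was 2.94%. miR-671 lost its call when any 1 of the PBS libraries (-2.66, -2.62 and -2.64) or BMP4 replicate 3 (-2.34) was left out, with differences near that of all libraries. The groups did not overlap in arm ratio for 2 of the 5, miR-671 and miR-1981, against 20.6% of the 34. miR-671 was the only hairpin of the 34 whose mean arm ratio had opposite signs in PBS and BMP4. The 5 hairpins were chosen on this ratio in these same libraries. Their calls, overlaps and signs are therefore a description only, and nothing is read from their comparison with the other 29. The spread within groups was unlike among the 5, with a pooled SD of 0.350 for miR-340, 0.515 for miR-671, 0.930 for miR-28a, 1.40 for miR-1981 and 1.69 for miR-151, against a median of 0.670 in the others. In PBS the range over libraries was 3.56 for miR-1981 and 3.10 for miR-151, ranks 2 and 4 of the 34 from the widest.

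**Figure D4:**
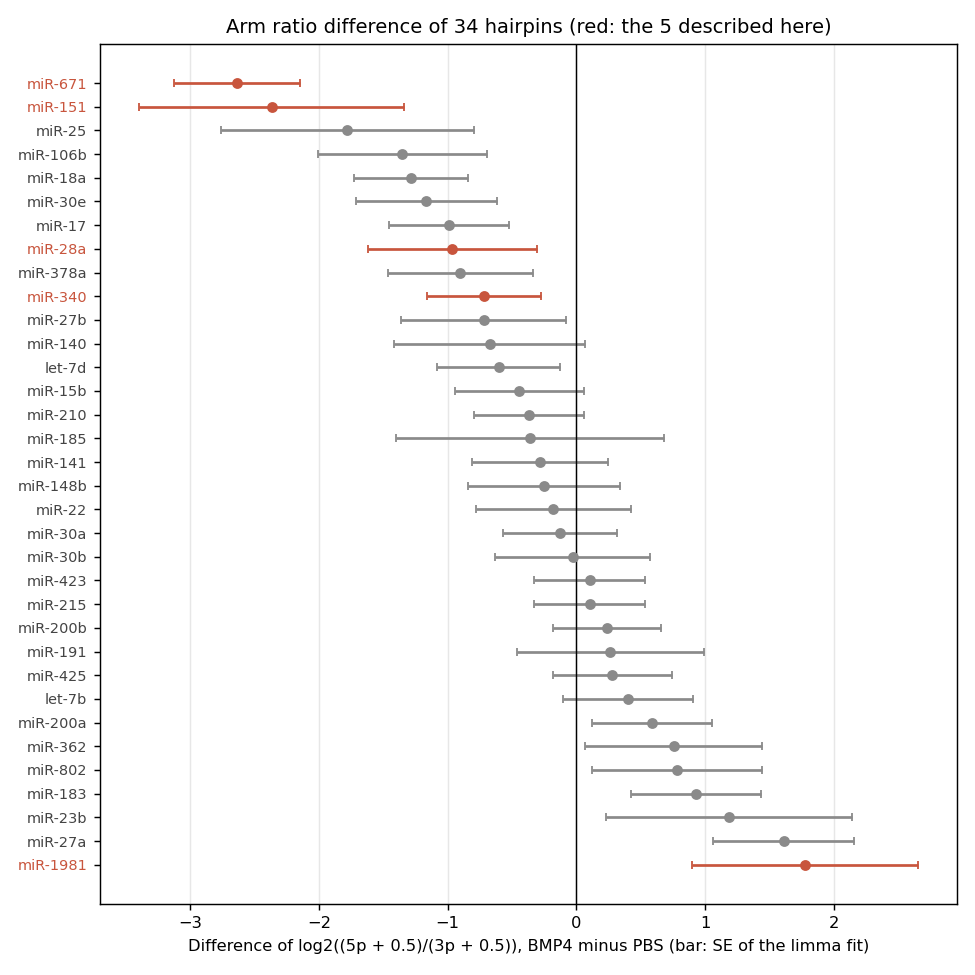
Difference in arm ratio, BMP4 minus PBS (log2, horizontal axis), for the 34 hairpins with both arms in the table, with the SE of the limma fit as bars and the 5 hairpins described here in red. miR-671 (-2.64) and miR-151 (-2.37) lie at the end toward the 3p arm and miR-1981 (1.78) at the end toward the 5p arm, and the bars of miR-151 and miR-1981 are wide.

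As background, the strand whose 5′ end is less firmly paired tends to be loaded as the guide, and G and C pair more firmly than A and U. Among the first 4 bases miR-340-5p held 0 G or C and miR-340-3p held 3, and the 5p arm was the higher in every library. miR-1981-5p held 1 and miR-1981-3p held 2, and the 5p arm was the higher in every library but PBS replicate 1, where the counts were equal. miR-671-5p held 2 and miR-671-3p held 3, so the arm with fewer was the higher in PBS and the lower in BMP4. The arms of miR-28a held 2 each. Of 28 hairpins with both sequences, 21 had arms that differed in this number, and the arm with fewer was the higher on average in 16 of them in PBS and in 15 in BMP4. The predicted folds ordered the ends otherwise for miR-340 and miR-1981, but not for miR-671. Of the first 4 bases, miR-340-5p had 4 paired and miR-340-3p 3, and miR-1981-5p had 4 and miR-1981-3p 2. In both hairpins the 5p arm was thus the more paired. For miR-671 the 5p arm had 3 and the 3p arm 4. Whether end pairing bears on the higher arm was not tested.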

How the data were processed

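The authors trimmed adaptors with bbmap, kept reads of miRNA length, mapped them with the mapper script of miRDeep2 and quantified mature miRNAs of miRBase with its quantifier. The deposited values are raw counts per mature miRNA and library, not normalized. Neither genome build nor miRBase release is given in the sources used here. Positions and hosts came from GENCODE M21 by name.

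Counts were fitted with edgeR 4.0.16 in R 4.3.3 (filterByExpr, TMM, quasi-likelihood F test, 2-sided, Benjamini-Hochberg over 195 of 199 miRNAs). Arm ratios, log2((5p + 0.5)/(3p + 0.5)), were fitted with limma 3.58.1 over the 34 hairpins with both arms at a mean of 10 or more counts. An adjusted p under 0.05 was a call. Alternatives were other scalings, DESeq2 1.42.0, no filter, other pseudocounts and minimum counts, a variance trend, a replicate block and leaving out libraries. A count of 3 was worth 0.722 to 8.02 CPM. Replicates of a group differed by more than counting error (chi-square per degree of freedom 47.6 or more).

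Named were the 10 arms, the listed markers of intestinal and stratified epithelium, and miR-28c (chosen after its values were seen). Of the other hairpins, the 3 with the largest ratio difference in each direction were named. Members and lists were chosen with earlier results of these data known. Drawing used Python 3.11.15 and matplotlib 3.10.9.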

Additional observations from a re-analysis of the deposited data

How the results depend on the processing

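The arm ratio does not depend on library scaling, and a replicate block or a variance trend leaves its fitted difference as it was. The 5 differences kept their sign with pseudocounts of 0.1 and 1 and with any 1 library left out. Leaving out 1 library at a time they ran from -3.04 to -2.34 for miR-671, -3.37 to -1.51 for miR-151, -1.49 to -0.23 for miR-28a, -0.94 to -0.52 for miR-340 and 0.69 to 2.47 for miR-1981. The number of hairpins called by limma, 1 of 34, was 0 with a variance trend and 0 with a minimum mean of 50 counts. That minimum left 15 hairpins, and miR-671, miR-340 and miR-1981 were not among them. It ran from 0 to 1 without 1 library. A minimum of 5 counts or none kept the same 34 hairpins. The count of miRNAs called by edgeR, 59, was 171 with total counts and ran from 35 (without PBS replicate 3) to 71 (without BMP4 replicate 2), and miR-1981-5p then stood at -0.15 with total counts. miR-671-5p was called under every setting run, but it was chosen on this contrast in these same libraries, so its calls are a description only. miR-151-5p was not called with DESeq2 size factors, without the filter or by DESeq2. With both PBS replicate 1 and BMP4 replicate 2 left out, chosen after seeing the data, edgeR called 63 miRNAs and 3 of the 10 arms, limma called miR-671 alone, and the differences were -2.55 for miR-671, -1.27 for miR-151, -0.18 for miR-28a, -0.85 for miR-340 and 0.78 for miR-1981. Depth limits miR-671 and miR-1981 most, with 3 and 8 reads of the hairpin in their shallowest library.

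With the replicate number of the titles as a replicate block, limma called 2 hairpins, miR-671 and miR-151, and edgeR 49 miRNAs. Deviations of same-numbered libraries correlated by 0.04, 0.09 and -0.01 over 195 miRNAs. PBS replicates 1 and 2 correlated best with the BMP4 library of the same number, and PBS replicate 3 with BMP4 replicate 1 (0.10). Values this near 0, from 3 libraries per group, cannot decide whether same-numbered libraries shared a culture or batch. The labels give only the number.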
